A study of Homo sapiens with 24 samples.

Results

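The first 90 min of a transcription block were examined in HMLE/RBMS3 cells. HMLE is an immortalized line of human mammary epithelial cells, and this version of it was made to express RBMS3, an RNA-binding protein. The comparison set 3 libraries of RBMS3 cells after 90 min in actinomycin D against 3 libraries of the same cells at 0 min, chosen by line and time from the sample titles, which makes 6 of the 24 libraries of the series. Of the 38849 genes in the deposited table, 11814 had a mean normalized count of at least 10 over the 12 RBMS3 libraries and were tested. The other libraries are RBMS3 cells at 180 and 360 min, and cells of the same origin that carry LacZ, which encodes a bacterial enzyme and serves as the control, at 0, 90, 180 and 360 min, with 3 libraries for each line and time. Actinomycin D was given at 10 µg/mL per the labels, also to the LacZ cells, and the 0 min libraries are labelled as the start of that treatment. All cells grew in medium with serum, EGF, insulin and hydrocortisone. The sources used here give neither the vector nor whether a line is a clone or a pool. No library analysed here came from cells kept for 90 min without the drug, so the time in actinomycin D and the time in culture cannot be told apart.

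Actinomycin D lies between the bases of DNA and stops RNA polymerases, so that no new transcript replaces those that are degraded. Messages then disappear at their own rates: those of transcription factors, cytokines and feedback inhibitors are known to be short-lived in many human cells, often through AU-rich elements in the 3' untranslated region (UTR) that recruit deadenylases, while those of metabolic enzymes and ribosomal proteins are long-lived. RBMS3 binds AU-rich RNA, and the study asked whether it steadies the message of PRRX1, a homeobox factor of the epithelial-mesenchymal transition (EMT), in which epithelial cells lose their junctions and become motile. Libraries were made by QuantSeq, a method that primes on poly(A) and sequences the end of each message. The amount of RNA per cell was not measured, and each value is scaled relative to the other messages of its library. A gene that rose after the block gained against those messages. In bulk RNA fewer cells that hold a message and less of it per cell cannot be told apart.

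Depth, inferred from the smallest steps of the table, was 6971377 to 9710878 reads in the 90 min libraries and 6391440.2 to 7327483 in the 0 min libraries, and 1 read was worth 0.724 to 1.01 normalized counts at 90 min and 0.943 to 1.07 at 0 min. Genes above 0 numbered 14525 to 15459 at 90 min and 15090 to 15374 at 0 min. Across all tested genes the lowest Pearson r of log2(normalized count + 1) was 0.945 among the 90 min libraries and 0.936 among the 0 min libraries, against 0.899 to 0.915 between the times. Differences below are on the log2(normalized count + 1) scale, 90 min minus 0 min, and come from limma, which shares an estimate of the spread among genes. A gene passed at a Benjamini-Hochberg adjusted p under 0.05. Nothing in the labels tells separate cultures from repeat libraries of 1 culture, and a p-value here measures the spread among libraries only, part or all of which may be technical.

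The targeted message and the label of the cells were checked first. RBMS3 had normalized counts of 174, 236 and 219 at 90 min, against 358, 254 and 203 at 0 min, groups that overlap, with a difference of -0.34 ± 0.20 (SE; limma adjusted p = 0.28). It averaged 79.7 ± 43.9 in LacZ cells at 90 min and 97.7 ± 20.5 in LacZ cells at 0 min (SD, n = 3 each), below every RBMS3 library shown here. A 3' tag may miss an introduced coding sequence that ends in a vector's own terminator, so these reads may come from the cell's own gene alone. PRRX1 had 437, 448 and 562 at 90 min, against 484, 491 and 440.1 at 0 min, again overlapping, with a difference of 0.02 ± 0.13 (SE; limma adjusted p = 0.92). The 14 epithelial markers other than basal ones were low in these cells. They summed to 1612 to 2154 normalized counts at 90 min and 2013 to 2169 at 0 min, mostly from KRT8 and KRT18. In LacZ cells at 0 min their sum was 9890 to 11649.7. KRT19, GRHL2, RAB25 and OVOL2 were at 0 in every RBMS3 library of both times. The 10 basal epithelial markers summed to 15039 to 15339 at 0 min, against 25836 to 31834 in LacZ cells at 0 min. Single basal markers differed: KRT14 averaged 6059 in RBMS3 and 2555 in LacZ cells at 0 min, and TP63 3.28 and 247. KRT5 averaged 2652 and 2702, and KRT17 2993 and 2876, in the same order. The 10 mesenchymal markers, led by VIM and FN1, summed to 41064 to 42661 at 90 min and 52178 to 55292 at 0 min, against 8242 to 8833 in LacZ cells at 0 min. Markers of other cell types were nearly absent, with sums of 16.2 to 25.3 at 90 min and 35.6 to 58.1 at 0 min over 8 leukocyte genes, and at most 15.6 over 5 endothelial genes.

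By 90 min 1180 genes (9.99% of those tested) had risen and 890 (7.53%) had fallen. The falls were the larger changes: their median was 1.03 in size, 167 genes fell by more than 2 and 79 by more than 3, while the rises had a median of 0.56, with 38 over 2 and 9 over 3. The median over all 11814 genes was -0.0080. Detection followed level, since 28.0% of genes with a mean of at least 1000 rose and 12.6% fell, against 1.88% and 3.95% of genes with a mean of 10 to 30. The gene lists below were not matched to other genes by level, and their counts are to be read beside the 9.99% and 7.53%. Most tested genes, 11068, were protein-coding, and 1127 of them (10.2%) rose and 852 (7.70%) fell, near the shares over all genes. Among 441 long noncoding RNAs 30 (6.80%) rose and 17 (3.85%) fell. Genes named for the size of their change had to have replicates that do not overlap, so their separation is a condition of the choice.

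**Figure D1:**
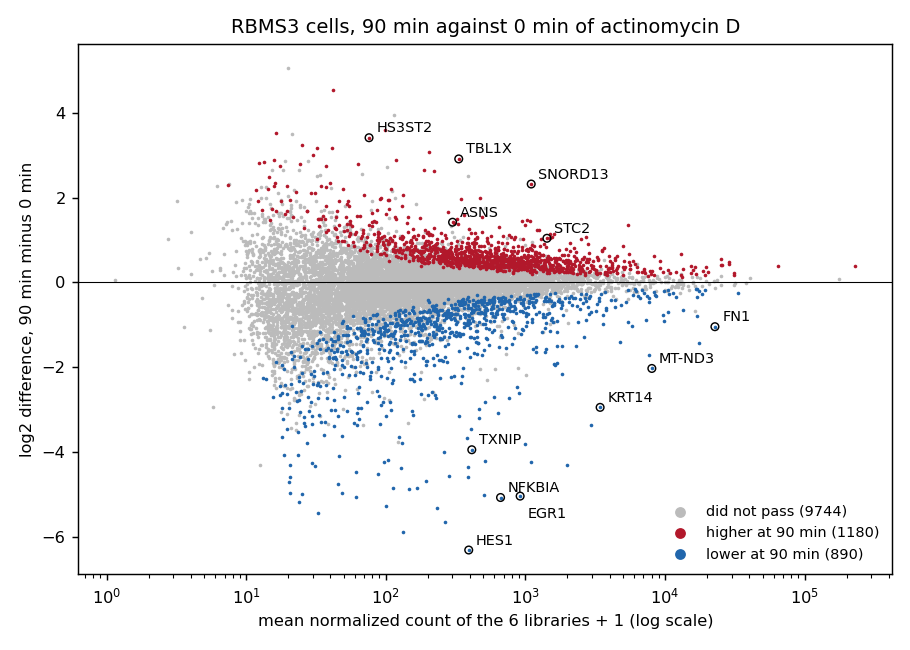
Each point is a tested gene, with the mean normalized count of the 6 libraries on a log axis across and the log2 difference, 90 min minus 0 min, up the page. Genes that passed are coloured, 1180 higher and 890 lower, and the lower ones reach much farther from 0, as for HES1, NFKBIA and EGR1.

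Immediate early and other labile transcription factors, which cells make within minutes of a growth signal, fell in 34 of 50 tested cases and none passed as higher, with a median difference of -1.63 against -0.0080 over all genes. HES1, a repressor downstream of Notch, had 15.8, 13.1 and 2.96 at 90 min, against 838, 723 and 754 at 0 min. The difference of -6.30 ± 0.63 (SE; limma adjusted p = 2.8e-05) was the largest fall of any gene named here. EGR1, a zinc finger factor of the growth factor response, had 67.9, 37.3 and 59.4 at 90 min, against 1898, 1795 and 1632 at 0 min, a difference of -5.03 ± 0.45 (SE; limma adjusted p = 1.1e-05). At 90 min every library of both genes lay far below all 0 min libraries. JUNB, an AP-1 subunit, had 27.4, 33.9 and 27.5 at 90 min, against 935, 971 and 1048 at 0 min, a difference of -5.01 ± 0.46 (SE; limma adjusted p = 1.4e-05). IER3, an early response protein that limits apoptosis, had 138, 126 and 130.4 at 90 min, against 1713, 2008 and 1865 at 0 min, a difference of -3.81 ± 0.30 (SE; limma adjusted p = 3.9e-06). Of the other AP-1 genes, FOS changed by -4.96 and JUN by -2.99, and both passed. The ID genes, inhibitors of basic helix-loop-helix factors, fell by 3.37 for ID1 and 3.67 for ID2. MYC, the growth regulator, fell by 3.64, a call lost without replicates 1 or 3 of 90 min or replicates 1, 2 or 3 of 0 min (limma adjusted p 0.075 to 0.10). Members that did not pass include KLF3 at -0.28, FOSL1 at 0.10 and BHLHE40 at 0.22.

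Feedback inhibitors of signalling fell in 18 of 47 cases and rose in 3, with a median of -0.66. DUSP1, a phosphatase that switches off MAP kinases, had 3.04, 11.0 and 0.724 at 90 min, against 273, 215 and 282 at 0 min, a difference of -5.87 ± 0.92 (SE; limma adjusted p = 0.00093). NFKBIA encodes the inhibitor that holds NF-κB in the cytoplasm. It had 35.0, 40.3 and 37.2 at 90 min, against 1199.9, 1315 and 1344 at 0 min, a difference of -5.06 ± 0.31 (SE; limma adjusted p = 3.5e-07). SOCS3, which restrains JAK-STAT signalling, had 7.10, 0 and 2.17 at 90 min, against 103, 72.6 and 101 at 0 min, a difference of -4.96 ± 0.90 (SE; limma adjusted p = 0.0023). The pseudokinase gene TRIB1 had 5.47, 9.91 and 11.7 at 90 min, against 249.7, 309.7 and 283 at 0 min, a difference of -4.86 ± 0.60 (SE; limma adjusted p = 0.00016). In all 4 genes the highest 90 min library lay far below the lowest 0 min library. DUSP6, which acts on ERK, fell by 4.84. The 3 that rose, named after their values were seen, were DUSP7 at 0.81, TRIB3 at 1.02 and RGS4, a regulator of G protein signalling, at 0.85. With all 24 libraries in 1 fit, DUSP7 (limma adjusted p 0.30, over all alternatives 0.0036 to 0.30) and RGS4 (limma adjusted p 0.47, over all alternatives 0.0017 to 0.47) did not pass.

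Secreted signals were mixed, with 10 of 39 lower, 5 higher and a median of -0.23. The share that rose, 12.8%, was near the 9.99% over all genes, and 25.6% fell against 7.53%. CCN1, a matricellular protein, had 196, 239 and 153 at 90 min, against 3921, 3625 and 3804 at 0 min, a difference of -4.29 ± 0.32 (SE; limma adjusted p = 2.3e-06). The neutrophil chemokine CXCL1 had 22.3, 54.2 and 21.7 at 90 min, against 471, 513 and 489 at 0 min, a difference of -4.0 ± 0.38 (SE; limma adjusted p = 1.7e-05), and its relative CXCL3 had 3.03, 6.68 and 3.32 at 90 min, against 83.6, 81.3 and 94.8 at 0 min, a difference of -4.09 ± 0.68 (SE; limma adjusted p = 0.0014). ADM, a vasodilator peptide, fell by 2.96. The 5 members that rose, named after their values were seen, were IGF2 at 1.96, INHBA, an activin subunit, at 1.58, STC2 at 1.04, TGFB2 at 0.79 and PDGFA at 0.67. IGF2 lost its call with all 24 libraries in 1 fit (limma adjusted p 0.058, over all alternatives 2.6e-05 to 0.058). TGFB2 lost its call without replicates 1, 2 or 3 of 90 min or replicates 2 or 3 of 0 min (limma adjusted p 0.053 to 0.095), and PDGFA lost its call without replicates 1, 2 or 3 of 90 min or replicates 2 or 3 of 0 min (limma adjusted p 0.077 to 0.17). CXCL1 and CXCL3 share much of their sequence, so reads could be split between them by the counting.

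Among 32 tested p53 targets 7 (21.9%) fell and 2 (6.25%) rose, against 7.53% and 9.99% over all genes, with a median of -0.28. GADD45B, a stress sensor, had 125, 147 and 112 at 90 min, against 859.9, 899 and 933 at 0 min, a difference of -2.81 ± 0.19 (SE; limma adjusted p = 8.3e-07). The kinase gene PLK2 had 26.6, 15.5 and 27.2 at 90 min, against 192, 140.0 and 161 at 0 min, a difference of -2.81 ± 0.42 (SE; limma adjusted p = 0.00059). CDKN1A and MDM2, the best known targets, stood at -0.27 and 0.06 and did not pass. In the BCL2 family 1 of 10 fell, near the share over all genes, and 3 rose. MCL1, a short-lived guard against apoptosis, had 578, 614 and 549 at 90 min, against 1699, 1838 and 1911 at 0 min, a difference of -1.64 ± 0.21 (SE; limma adjusted p = 0.00020). BAK1 and BAD, which promote apoptosis, rose by 0.93 and 0.56. BCL2L1, a long-lived guard, rose by 0.46, a call lost without replicate 3 of 90 min or replicates 2 or 3 of 0 min (limma adjusted p 0.060 to 0.066).

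Of 62 tested proteins that control mRNA decay 7, or 11.3%, rose and 5, or 8.06%, fell, near the backgrounds of 9.99% and 7.53%, with a median of -0.04, whose sign turns under scaling by ribosomal protein genes (0.008). ZFP36L2 had 252, 301 and 245 at 90 min, against 1588, 1348 and 1442 at 0 min, a difference of -2.45 ± 0.14 (SE; limma adjusted p = 2.3e-07). ZFP36L1 had 848, 930.4 and 1091 at 90 min, against 2648, 2639 and 2769 at 0 min, a difference of -1.50 ± 0.09 (SE; limma adjusted p = 3.4e-07). Both recruit deadenylases to AU-rich messages. ZC3H12A, an endonuclease that cuts inflammatory messages, had 0, 6.78 and 2.17 at 90 min, against 55.8, 55.6 and 51.3 at 0 min, a difference of -4.25 ± 1.02 (SE; limma adjusted p = 0.012). N4BP1, at -0.97, and SMG1, at -1.30, complete the 5 that fell, and they were named after their values were seen. The call for SMG1 was lost without replicates 1 or 3 of 90 min or replicates 2 or 3 of 0 min (limma adjusted p 0.089 to 0.12).

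**Figure D2:**
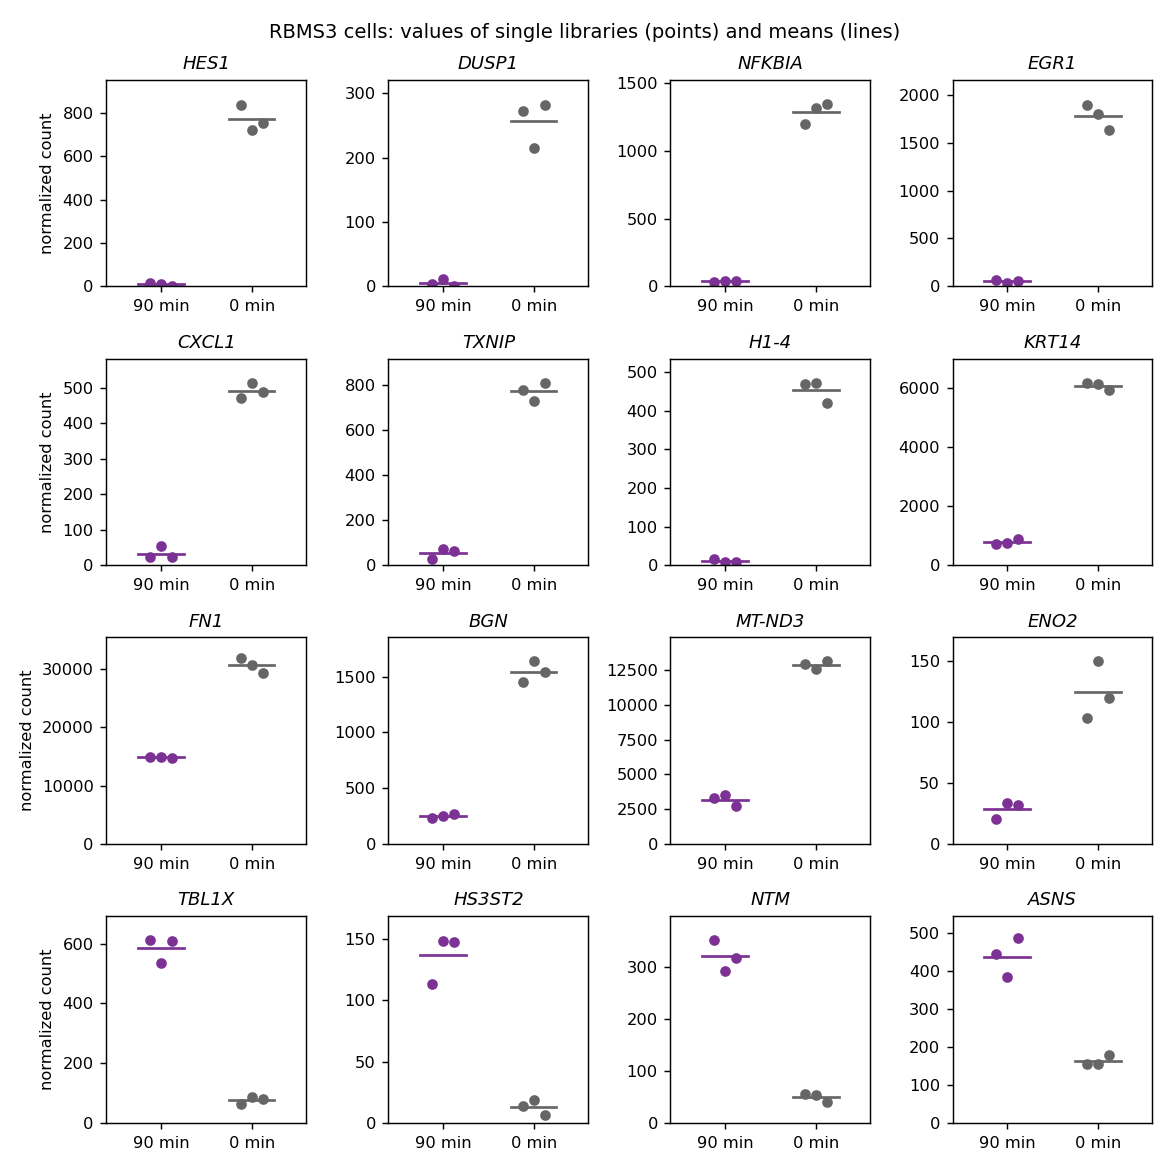
Normalized counts of 16 genes, on linear axes that start at 0, in the 3 libraries at 90 min (left of each panel) and the 3 at 0 min (right), with a point for each library and a line at the mean. Falls of HES1, DUSP1 and NFKBIA cover more than an order of magnitude with no overlap, and KRT14, FN1 and BGN fall with little spread, while TBL1X, HS3ST2, NTM and ASNS are higher at 90 min.

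The 3' UTRs of the genes that fell were read for decay elements on the transcript strand, in the last 500 bases of the UTR of the coding transcript with the most estimated reads, taken from the GENCODE 29 annotation of GRCh38. There were 7959 tested genes with such a window, 647 of which had fallen and 711 of which had risen. The AU-rich heptamer TATTTAT stood in 16.7% of all windows, in 20.1% of windows of genes that fell, in 23.3% of the 330 that fell by at least 1, in 27.3% of the 110 that fell by at least 2, and in 14.1% of those that rose. The pumilio-type element TGTANAT stood in 32.7% of all windows, 37.9% for falls, 43.0% for falls of at least 1, 44.5% for falls of at least 2 and 28.6% for rises. The short pentamer ATTTA, which TATTTAT contains, differed little, with 63.8% of all windows, 63.7% for falls, 66.7% for falls of at least 1, 63.6% for falls of at least 2 and 60.9% for rises. ATATA stood in 48.8% of all windows, 49.3% for falls, 51.5% for falls of at least 1, 40.9% for falls of at least 2 and 47.0% for rises. Genes that rose by at least 1 held TATTTAT in 20.5% of 122 windows, so the order did not extend to the largest rises. Sites are shown for 8 genes that fell, because they let the elements of different gene classes be compared letter by letter. Each line gives 25 bases from the transcript strand with TATTTAT in capitals.
DUSP1: tttgctgatTATTTATgacctgaaa
NFKBIA: tatgatgtaTATTTATtaaacagat
SOCS3: acatatttaTATTTATattcagaaa
IER3: gtctcttggTATTTATtgagctttg
CXCL1: gtcagttgtTATTTATtgaaatgat
CXCL3: gtcagttgtTATTTATtcaaattat
ZFP36L1: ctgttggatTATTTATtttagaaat
TWIST1: cattctattTATTTATtgaggaccc

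These sites lie in GRCh38 at chr5:172768184-172768208 (minus strand) for DUSP1, chr14:35401522-35401546 (minus strand) for NFKBIA and chr17:78356828-78356852 (minus strand) for SOCS3. They lie at chr6:30743540-30743564 (minus strand) for IER3, chr4:73871015-73871039 (plus strand) for CXCL1 and chr4:74036775-74036799 (minus strand) for CXCL3. The last pair are at chr14:68788079-68788103 (minus strand) for ZFP36L1 and chr7:19115580-19115604 (minus strand) for TWIST1. All are in annotated 3' UTRs. The CXCL1 and CXCL3 sites share 23 of 25 bases. Base composition moves with the element: in windows with under 50% A and T, 13.7% of 139 genes with TATTTAT fell against 7.94% of 1385 without it. The shares were 9.78% of 225 with and 8.02% of 1895 without it at 50 to 60% A and T, 9.59% of 636 and 7.51% of 2650 at 60 to 70%, and 8.41% of 333 and 8.05% of 696 at 70% or more. The median 3' UTR was 1251 bases long in 847 genes that fell, 825.5 bases in 1118 that rose and 1176 bases over all 10944 with one. A match describes the letters only, and binding was not measured.

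Among the EMT transcription factors and the RBMS family 7 of 19 fell and 1 rose, with a median of -0.34. SNAI2, a repressor of E-cadherin, had 110.2, 109 and 97.2 at 90 min, against 354, 367 and 403 at 0 min, a difference of -1.82 ± 0.32 (SE; limma adjusted p = 0.0018). SOX4 had 235, 253 and 299 at 90 min, against 623, 701 and 593 at 0 min, a difference of -1.28 ± 0.16 (SE; limma adjusted p = 0.00016). FOXC2, a forkhead factor of mesenchymal cells, had 247, 239 and 223 at 90 min, against 457, 492 and 514 at 0 min, a difference of -1.04 ± 0.19 (SE; limma adjusted p = 0.0023). TWIST1, one of the 8 genes with a printed site, had 313, 367 and 327 at 90 min, against 717, 579.5 and 690.0 at 0 min, a difference of -0.98 ± 0.13 (SE; limma adjusted p = 0.00023). The 90 min libraries were lower than each 0 min library in all 4 genes, by less than in the immediate early genes. TWIST2 fell by 0.88, TCF4 by 0.79 and TCF3 by 0.37. TCF4 lost its call without replicates 1 or 3 of 90 min or replicates 1, 2 or 3 of 0 min (limma adjusted p 0.071 to 0.18), and TCF3 without replicate 1 of 90 min or replicates 2 or 3 of 0 min (limma adjusted p 0.062 to 0.083). TEAD4, a partner of the YAP coactivator, rose by 0.66, was named after its value was seen, and lost its call without replicate 3 of 90 min (limma adjusted p 0.052). PRRX1 at 0.02, ZEB1 at 0.08, ZEB2 at -0.54, RBMS1 at -0.23 and RBMS2 at 0.48 did not pass, though RBMS2 passed without replicate 1 of 90 min or replicate 1 of 0 min (limma adjusted p 0.032 and 0.035).

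Of 44 tested homeobox and patterning factors 9 fell and 2 rose, with a median of -0.55. FOXO1, a forkhead factor under insulin control, had 58.8, 28.8 and 23.9 at 90 min, against 222, 157 and 171 at 0 min, a difference of -2.37 ± 0.36 (SE; limma adjusted p = 0.00077). GATA3, a luminal mammary factor, had 107, 113 and 115 at 90 min, against 239.6, 345 and 349 at 0 min, a difference of -1.45 ± 0.23 (SE; limma adjusted p = 0.00093). IRX2 had 397, 311 and 358 at 90 min, against 719.8, 831 and 858 at 0 min, a difference of -1.18 ± 0.15 (SE; limma adjusted p = 0.00018). IRX4 and PITX1 rose by 0.85 and 0.40 and were named after their values were seen. IRX4 lost its call without replicates 1, 2 or 3 of 90 min or replicates 1, 2 or 3 of 0 min (limma adjusted p 0.077 to 0.14). Zinc finger genes named ZNF, many of which encode repressors, had a median of -0.56, but 24 of 336 passed as lower and 8 as higher, which is near the background of 7.53% and below that of 9.99%. The 4 ZNF genes that the naming rule picked, ZNF217, ZNF544, ZNF134 and ZNF430, each lost their call without at least 3 of the 6 libraries in turn, at limma adjusted p-values of 0.060 to 0.12.

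A small mixed list of cell cycle inhibitors, cyclins, ubiquitin ligases, TXNIP and ARRDC genes, among others, had 6 of 24 lower and 2 higher. TXNIP, which binds thioredoxin and blocks glucose uptake, had 26.4, 73.7 and 60.8 at 90 min, against 776, 727 and 806 at 0 min, a difference of -3.94 ± 0.39 (SE; limma adjusted p = 2.6e-05). CDKN1B, the cyclin-dependent kinase inhibitor p27, had 3.93, 18.9 and 7.02 at 90 min, against 60.3, 70.3 and 93.5 at 0 min, a difference of -3.01 ± 0.61 (SE; limma adjusted p = 0.0047). The cyclins CCND1 and CCND3 rose by 0.78 and 0.51 and were named after their values were seen.

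Messages made inside mitochondria fell almost as a block: 12 of 13 fell, with a median of -0.79. Mitochondrial DNA is read by its own polymerase into long transcripts that are cut into single messages. MT-ND3 had 3320.5, 3503 and 2733 at 90 min, against 12934, 12575 and 13179 at 0 min, a difference of -2.02 ± 0.08 (SE; limma adjusted p = 9.1e-09). MT-ND2 had 9699, 9848 and 8894 at 90 min, against 24294, 26295 and 26096 at 0 min, a difference of -1.43 ± 0.06 (SE; limma adjusted p = 2.4e-08). MT-ND6, the message of the light strand, had 65.9, 48.3 and 63.0 at 90 min, against 405, 405 and 375 at 0 min, a difference of -2.73 ± 0.30 (SE; limma adjusted p = 5.2e-05). The spread between libraries was small beside these changes. The other falls ran from MT-ATP6 at -0.18, lost without replicates 2 or 3 of 90 min or replicates 1 or 3 of 0 min (limma adjusted p 0.096 to 0.12), to MT-ND1 at -1.29, and MT-CO2, at 0.13, did not pass, but passed as higher under ribosomal protein scaling (limma adjusted p 0.030, over all alternatives 0.030 to 0.49). The share of all counts on mitochondrial genes, ribosomal RNAs included, was 5.85 to 6.27% at 90 min and 5.80 to 5.97% at 0 min.

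Structural genes of the mesenchymal state also fell: 30 of 61 matrix and mesenchymal genes were lower and 6 higher, with a median of -0.37. The share that rose, 9.84%, was near the 9.99% over all genes. FN1, the matrix protein fibronectin, had 14868, 14976 and 14795 at 90 min, against 31863, 30780.2 and 29284 at 0 min, a difference of -1.04 ± 0.05 (SE; limma adjusted p = 5.1e-08). BGN, a small proteoglycan, had 232, 253 and 274 at 90 min, against 1452, 1639 and 1542 at 0 min, a difference of -2.61 ± 0.14 (SE; limma adjusted p = 1.6e-07). COL1A2, a chain of type I collagen, had 264, 231 and 254 at 90 min, against 661, 626 and 718 at 0 min, a difference of -1.42 ± 0.13 (SE; limma adjusted p = 1.7e-05), a call lost with all 24 libraries in 1 fit (limma adjusted p 0.24, over all alternatives 9.3e-06 to 0.24). In these genes the 3 libraries of each time lay close together and far from the other time. COL3A1 had 26.8, 41.4 and 36.6 at 90 min, against 2000.1, 169 and 171 at 0 min, and its difference of -3.46 ± 0.72 (SE; limma adjusted p = 0.0056) was -2.27 with a limma adjusted p of 0.00096 without the high replicate 1 of 0 min. LAMA4, a laminin chain, had 46.1, 10.3 and 22.0 at 90 min, against 235, 208 and 126 at 0 min, a difference of -3.00 ± 0.46 (SE; limma adjusted p = 0.00077), but the factor between the table and the reads ranged 7.10-fold over the later libraries for this gene. The members that rose included VIM, the intermediate filament vimentin, with 17919, 19139 and 18516 at 90 min, against 14549, 14588 and 14268 at 0 min, and CDH2, N-cadherin, with 3395, 3281 and 3812 at 90 min, against 2170.5, 2230.2 and 2078 at 0 min. Their differences were 0.36 ± 0.04 (SE; limma adjusted p = 4.3e-05) and 0.69 ± 0.06 (SE; limma adjusted p = 1.6e-05).

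Basal keratins fell as well. KRT14 had 723, 766 and 884 at 90 min, against 6168, 6108 and 5902 at 0 min, a difference of -2.94 ± 0.08 (SE; limma adjusted p = 2.8e-10) and a 7.66-fold lower mean at 90 min. KRT5, its partner in the filament, had 787, 664 and 692 at 90 min, against 2437, 2688 and 2829.7 at 0 min, a difference of -1.89 ± 0.10 (SE; limma adjusted p = 1.0e-07). KRT17 had 687, 670.1 and 648 at 90 min, against 2962, 2930.5 and 3086 at 0 min, a difference of -2.16 ± 0.07 (SE; limma adjusted p = 2.0e-09). No library of one time came near the other. The sum over the 10 basal markers was 6200.4 to 6398 at 90 min and 15039 to 15339 at 0 min, whereas SFN, an epithelial 14-3-3 protein, rose by 0.55. KRT8 and KRT18, keratins of simple epithelia, stood at -0.34 and -0.06 and did not pass, though KRT8 passed at -0.56 without replicate 1 of 90 min (limma adjusted p 0.0054).

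Glycolysis genes followed the same direction, with 13 of 23 lower, none higher and a median of -0.53. ENO2, an enolase, had 20.3, 33.9 and 31.9 at 90 min, against 104, 149.9 and 120.1 at 0 min, a difference of -2.10 ± 0.31 (SE; limma adjusted p = 0.00057). PFKL, a phosphofructokinase subunit, had 186, 245 and 209.6 at 90 min, against 420.0, 397 and 443 at 0 min, a difference of -0.98 ± 0.14 (SE; limma adjusted p = 0.00036). SLC2A1, the main glucose transporter, had 306, 292 and 218 at 90 min, against 533, 505 and 459 at 0 min, a difference of -0.89 ± 0.16 (SE; limma adjusted p = 0.0022). LDHA, lactate dehydrogenase A, fell by 0.64 and PGK1 by 0.53, both named after their values were seen, and GAPDH, at -0.13, did not pass, but did under quantile scaling (limma adjusted p 0.021, over all alternatives 0.021 to 0.50).

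Of 35 tested ATF4 targets and tRNA synthetases 19 rose and 1 fell, with a median of 0.47. ASNS, asparagine synthetase, had 443, 383 and 484 at 90 min, against 154, 155 and 179 at 0 min, a difference of 1.42 ± 0.14 (SE; limma adjusted p = 3.2e-05). SLC7A11, the cystine transporter, had 499, 429 and 414 at 90 min, against 192, 141 and 178 at 0 min, a difference of 1.39 ± 0.16 (SE; limma adjusted p = 6.5e-05). MARS1, the methionyl-tRNA synthetase, had 826, 688 and 780.1 at 90 min, against 425, 345 and 305 at 0 min, a difference of 1.10 ± 0.16 (SE; limma adjusted p = 0.00048). Every 90 min library lay above every 0 min library for the 3 genes. ATF4 itself, the factor that drives these genes under amino acid stress, stood at 0.04 and did not pass. The member that fell was DDIT4, an inhibitor of mTORC1, with 158, 170.4 and 147 at 90 min, against 996, 1048 and 1056 at 0 min, a difference of -2.70 ± 0.27 (SE; limma adjusted p = 2.8e-05).

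Cholesterol and fatty acid synthesis genes rose in 15 of 33 cases and fell in 3, with a median of 0.35. HMGCS1, FDFT1, SQLE and IDI1, enzymes along the path from acetyl-CoA to sterols, rose by 0.85, 1.01, 0.89 and 0.89. MVK, mevalonate kinase, had 83.1, 60.1 and 75.3 at 90 min, against 30.0, 39.2 and 31.8 at 0 min, a difference of 1.09 ± 0.24 (SE; limma adjusted p = 0.0076). Among the genes that fell were SREBF1, a regulator of lipid synthesis, at -1.81, and ACACA, acetyl-CoA carboxylase, at -2.0. SREBF1 lost its call without replicate 1 of 90 min or replicate 3 of 0 min (limma adjusted p 0.052 to 0.055). The factor between table and reads ranged 4.24-fold for ACACA, and 8.52-fold for MVD, whose difference was 3.07 ± 0.63 (SE; limma adjusted p = 0.0049).

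Genes picked by the symbols of translation initiation and elongation factors rose in 23 of 66 cases and fell in 2. The median of the list was 0.31, and the symbols also took in the methyltransferase genes EEF1AKMT4 and EEF2KMT. EIF2S2, a subunit of the initiation factor that delivers the first methionine, had 9942, 9368 and 10966 at 90 min, against 6414, 6810.0 and 6501 at 0 min, a difference of 0.62 ± 0.06 (SE; limma adjusted p = 1.7e-05). EIF2S1, another subunit of it, had 1429, 1035 and 1128 at 90 min, against 682, 661 and 756 at 0 min, a difference of 0.76 ± 0.14 (SE; limma adjusted p = 0.0021). EIF4E2 and EIF4G3 fell by 0.60 and 0.48 and were named after their values were seen. EIF4E2 lost its call without replicate 2 of 90 min or replicates 1 or 2 of 0 min (limma adjusted p 0.066 to 0.084), and EIF4G3 without replicates 2 or 3 of 90 min or replicates 2 or 3 of 0 min (limma adjusted p 0.071 to 0.10). Mitochondrial ribosomal protein genes rose in 27 of 78 cases and none passed as lower, with a median of 0.31. MRPS26 had 851, 778 and 1042 at 90 min, against 437, 447 and 513 at 0 min, a difference of 0.93 ± 0.12 (SE; limma adjusted p = 0.00023). Proteasome subunits rose in 16 of 37 cases with none lower and a median of 0.24. PSMD2, of the regulatory particle, had 5035, 4870.4 and 5846 at 90 min, against 3366, 3687 and 3530.1 at 0 min, a difference of 0.57 ± 0.08 (SE; limma adjusted p = 0.00040).

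Chaperones rose in 17 of 43 cases and fell in 2, with a median of 0.19. CCT6A, a subunit of the chaperonin that folds actin and tubulin, had 4198, 4546 and 4462 at 90 min, against 2602, 2739 and 2586 at 0 min, a difference of 0.74 ± 0.06 (SE; limma adjusted p = 2.7e-06). DNAJB4 and PDIA6 fell by 1.02 and 0.21, the second named after its value was seen and lost without replicate 3 of 90 min or replicate 1 of 0 min (limma adjusted p 0.052 to 0.068). Nuclear-encoded respiratory chain and ATP synthase genes rose in 19 of 80 cases with none lower and a median of 0.15, the opposite direction to the mitochondrial messages of the same complexes. These rises were 23.75% of the list, between 9.99% over all genes and 28.0% of genes with a mean of at least 1000. CYC1, cytochrome c1, had 2012, 2051 and 1886 at 90 min, against 1285, 1484 and 1311 at 0 min, a difference of 0.55 ± 0.07 (SE; limma adjusted p = 0.00017). NDUFA5, of complex I, had 733, 664 and 758 at 90 min, against 298, 374 and 369 at 0 min, a difference of 1.05 ± 0.12 (SE; limma adjusted p = 0.00010).

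Cytosolic ribosomal protein genes stayed near the middle, with 8 of 80 higher, 13 lower and a median of -0.0048, whose sign turns when libraries are scaled by these genes themselves (0.046) or by quantiles (0.002). The shares were 10.0% higher and 16.25% lower, against 9.99% and 7.53% over all genes. RPS25 had 6894, 6521 and 6834 at 90 min, against 8975, 8318 and 8711 at 0 min, a difference of -0.36 ± 0.05 (SE; limma adjusted p = 0.00035). RPL5 and RPL7 rose by 0.25 and 0.24, calls lost with limma's trend off (limma adjusted p 0.088, over all alternatives 0.00022 to 0.088 for RPL5, limma adjusted p 0.069 to 0.10, over all alternatives 0.0040 to 0.10 for RPL7) and, for RPL7, with all 24 libraries in 1 fit. Among 50 genes of G2 and mitosis 9 fell and 4 rose, with a median of -0.19. TOP2A, the topoisomerase of condensing chromosomes, had 7101, 7731 and 6477 at 90 min, against 12396, 11427 and 12548 at 0 min, a difference of -0.77 ± 0.11 (SE; limma adjusted p = 0.00045). CDC20, an activator of the anaphase-promoting complex, had 2703, 2759 and 3103 at 90 min, against 1769.7, 2088 and 2261 at 0 min, a difference of 0.49 ± 0.09 (SE; limma adjusted p = 0.0025). PTTG1, which guards sister chromatids, rose by 0.27, UBE2S by 0.24 and CKS2 by 0.44, but UBE2S lost its call without replicates 1, 2 or 3 of 90 min or replicates 1 or 2 of 0 min (limma adjusted p 0.072 to 0.14) and CKS2 without replicate 2 of 90 min or replicates 2 or 3 of 0 min (limma adjusted p 0.054 to 0.081). PTTG1 did not pass with quantile scaling, with limma's trend off or with only the 6 libraries fitted (limma adjusted p 0.051 to 0.070, over all alternatives 0.0035 to 0.070). S phase genes had 2 of 48 higher, 1 lower and a median of -0.10, and the 3 calls were fragile. UNG lost its call without replicate 1 of 0 min (limma adjusted p 0.054), TK1 without replicates 1 or 2 of 90 min or replicates 1 or 3 of 0 min (limma adjusted p 0.097 to 0.14), and CCNE1 without any of the 6 libraries (0.069 to 0.11).

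Splicing regulators divided evenly, with 8 of 46 higher, 8 lower and a median of 0.02 that turns to -0.010 when libraries are scaled by their sum and to -0.056 under quantile scaling. CLK2, a kinase of SR proteins, averaged 49.1 ± 12.6 at 90 min and 134 ± 14.1 at 0 min (SD, n = 3 each), a difference of -1.46 ± 0.34 (SE; limma adjusted p = 0.011). CLK1 and CLK4 were at -1.78 and -1.33 and did not pass. TRA2B, an SR-like splicing factor, had 976, 838 and 654 at 90 min, against 1554, 2042 and 1874 at 0 min, a difference of -1.16 ± 0.18 (SE; limma adjusted p = 0.00097). HNRNPDL, a gene regulated by its own protein, had 2795, 3198 and 2824 at 90 min, against 4939.7, 4589 and 4320.1 at 0 min, a difference of -0.65 ± 0.07 (SE; limma adjusted p = 7.2e-05). Host genes of small nucleolar RNAs had 5 of 29 higher, 2 lower and a median of -0.014, which turns to 0.037 under ribosomal protein scaling and 0.046 under quantile scaling. SNHG12 had 73.0, 67.8 and 164 at 90 min, against 294, 255 and 191 at 0 min, a difference of -1.37 ± 0.30 (SE; limma adjusted p = 0.0075). SNHG32 fell by 0.55, and SNHG5, SNHG16 and SNHG25 rose by 0.35, 0.34 and 0.29, named after their values were seen. SNHG32 (limma adjusted p 0.46, over all alternatives 0.0061 to 0.46) and SNHG25 (limma adjusted p 0.056 to 0.11, over all alternatives 0.0066 to 0.11) did not pass with all 24 libraries in 1 fit, nor SNHG25 and SNHG16 (limma adjusted p 0.059, over all alternatives 0.0047 to 0.059) with limma's trend off. Of the other rises, SNHG9 lost its call without replicate 1 of 90 min or replicate 3 of 0 min (limma adjusted p 0.073 to 0.083), and SNHG21 without replicates 1 or 3 of 90 min or replicates 1 or 2 of 0 min (limma adjusted p 0.051 to 0.071).

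**Figure D3:**
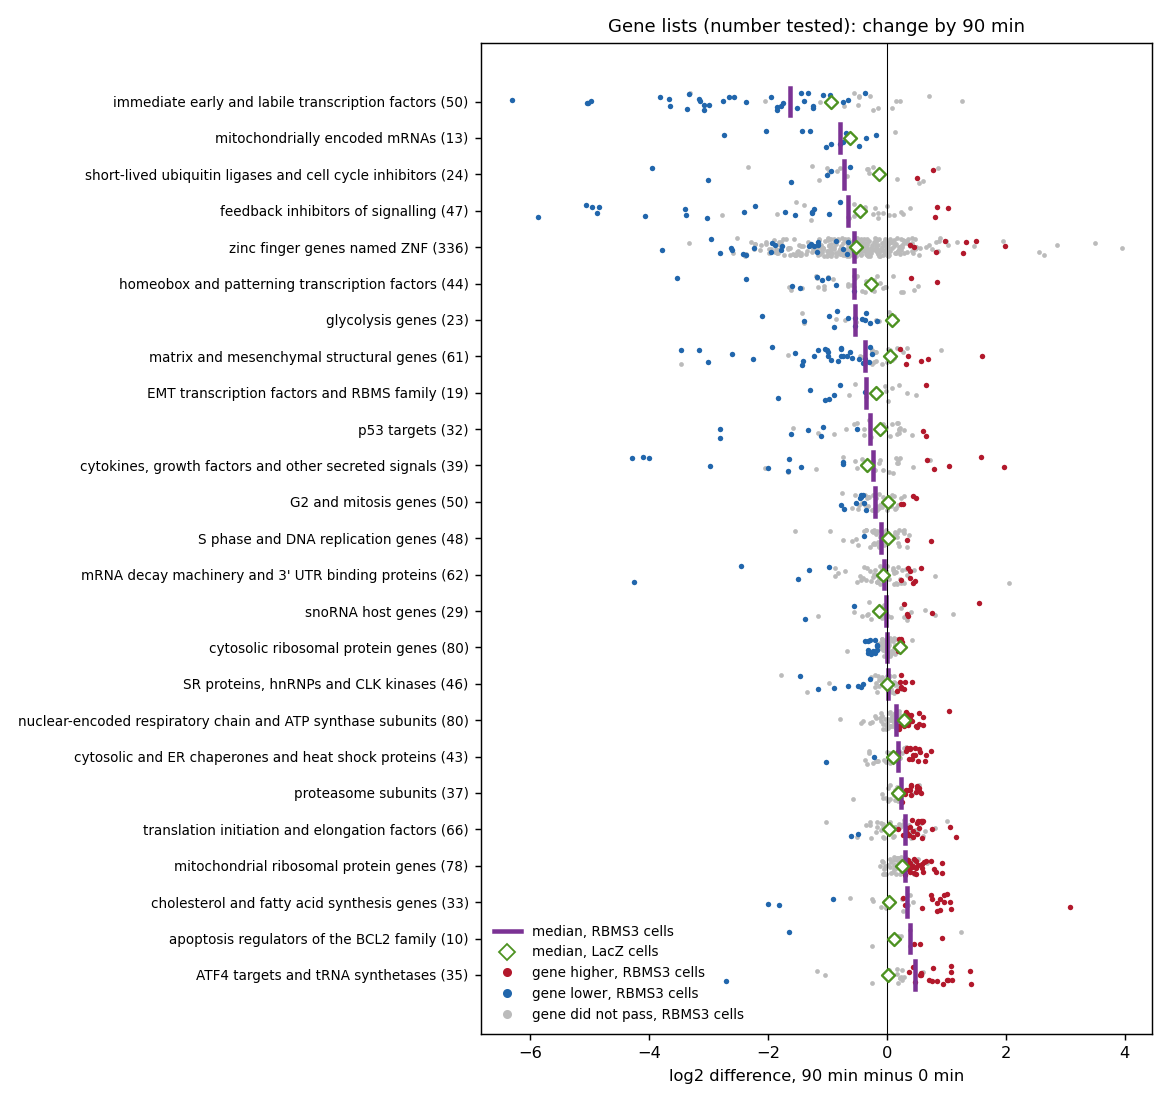
For each of 25 gene lists, points are the members' log2 differences between 90 and 0 min in RBMS3 cells, the bar is their median, the diamond is the median of the same list in LacZ cells, and the number tested stands in parentheses. Immediate early factors sit lowest with a median of -1.63 and ATF4 targets and tRNA synthetases highest at 0.47, while glycolysis and matrix genes are below 0 in RBMS3 cells and near 0 in LacZ cells.

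Several of the largest rises were in genes that are neither short-lived regulators nor part of a list. TBL1X, a subunit of a corepressor complex, had 611, 536 and 609.7 at 90 min, against 64.8, 88.3 and 79.6 at 0 min, a difference of 2.91 ± 0.13 (SE; limma adjusted p = 2.4e-08) and a 7.55-fold higher mean. HS3ST2, a heparan sulfate sulfotransferase, had 114, 148 and 148 at 90 min, against 14.0, 18.9 and 6.16 at 0 min, a difference of 3.41 ± 0.32 (SE; limma adjusted p = 1.7e-05). NTM, a cell adhesion protein of neurons, had 352, 293 and 319 at 90 min, against 55.8, 54.7 and 41.3 at 0 min, a difference of 2.65 ± 0.16 (SE; limma adjusted p = 2.7e-07). COL13A1, a transmembrane collagen, had 77.3, 42.4 and 49.9 at 90 min, against 6.88, 8.56 and 2.22 at 0 min, a difference of 3.16 ± 0.47 (SE; limma adjusted p = 0.00062). ADRA1B, an adrenergic receptor, had 63.9, 72.0 and 48.5 at 90 min, against 22.5, 1.89 and 10.3 at 0 min, a difference of 2.75 ± 0.62 (SE; limma adjusted p = 0.0088). In each gene the lowest 90 min library was above the highest 0 min library, as the rule requires. ADARB1 and DISP2 were also among the 12 largest rises, at 3.16 and 2.79, but their factor between table and reads ranged 9.19-fold and 10.9-fold, and ADARB1 lost its call without replicate 2 of 90 min or replicates 1 or 2 of 0 min (limma adjusted p 0.053 to 0.092), DISP2 without replicates 1, 2 or 3 of 90 min or replicates 1 or 3 of 0 min (limma adjusted p 0.059 to 0.090). SNORA67, SCARNA20, RNU1-1 and RNU6-37P, small RNAs that usually lack a poly(A) tail, make up the rest with MVD, and RNU6-37P lost its call without replicates 1, 2 or 3 of 90 min (limma adjusted p 0.063 to 0.11). Among the 12 largest falls outside the lists were RPH3A, at 2.03, 0 and 0 at 90 min and 67.6, 72.6 and 47.2 at 0 min, and C1R, a complement protease, at 1.57, 4.77 and 7.35 at 90 min, against 184, 153 and 246 at 0 min.

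Far fewer genes passed in the later intervals: 51 (0.432%) rose and 84 (0.711%) fell between 90 and 180 min (1.14% in all), and 202 (1.71%) rose and 251 (2.12%) fell between 180 and 360 min (3.83% in all). The 180 min against 90 min comparison shares the 90 min libraries, whereas the 360 min against 180 min comparison shares none. Both use the 180 min libraries, of which replicate 2 had 4405805 reads, fewer than any 0 or 90 min library. In it 1 read was worth 1.70 normalized counts. How far its depth lowers the later counts was not tested. Of the 890 genes that fell by 90 min, 38 fell and 4 rose by 180 min, with a median of 0.015. Between 180 and 360 min 68 of them fell, or 7.64%, and 26 rose, with a median of -0.085. The 459 that had fallen by at least 1 had later medians of -0.13 and -0.18, and 35 of them, or 7.63%, fell between 180 and 360 min. The 1180 that rose had later medians of 0.10 and 0.11, with 60 rising and 15 falling between 180 and 360 min.

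The falls took different courses. MCL1 averaged 1816 ± 108 at 0, 580.4 ± 32.8 at 90, 186 ± 24.3 at 180 and 106 ± 42.5 at 360 min (SD, n = 3 each). FOXC2 averaged 488 ± 28.8 at 0, 237 ± 12.3 at 90, 72.5 ± 7.02 at 180 and 41.1 ± 10.8 at 360 min. Both passed as lower in each later interval (limma adjusted p 0.0030 and 0.039 for MCL1, 0.0016 and 0.030 for FOXC2). So did MT-ND2 (limma adjusted p 0.0054 and 0.0012), and the 13 mitochondrial messages had a median change of -0.37 between 90 and 180 min and -0.33 between 180 and 360 min. KRT14 and FN1 did not pass as lower after 90 min, and both were higher at 360 than at 180 min (limma adjusted p 0.033 and 0.0065). KRT14 averaged 6059 ± 139.6 at 0, 791 ± 83.2 at 90, 944 ± 37.0 at 180 and 1184 ± 21.4 at 360 min. FN1 averaged 30642 ± 1295 at 0, 14879 ± 91.3 at 90, 14480.3 ± 892 at 180 and 18059.8 ± 786 at 360 min. Glycolysis genes had later medians of 0.15 and 0.21 and matrix genes of 0.10 and 0.15, on the other side of 0 from their early medians. TBL1X averaged 77.6 ± 11.9 at 0, 586 ± 42.9 at 90, 709 ± 53.5 at 180 and 696 ± 25.5 at 360 min, and NTM 50.6 ± 8.11 at 0, 321 ± 29.7 at 90, 295 ± 19.9 at 180 and 329.7 ± 33.3 at 360 min. In these genes the step lay between the 0 min libraries and all later ones. What the 0 min libraries share apart from their time was not tested.

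**Figure D4:**
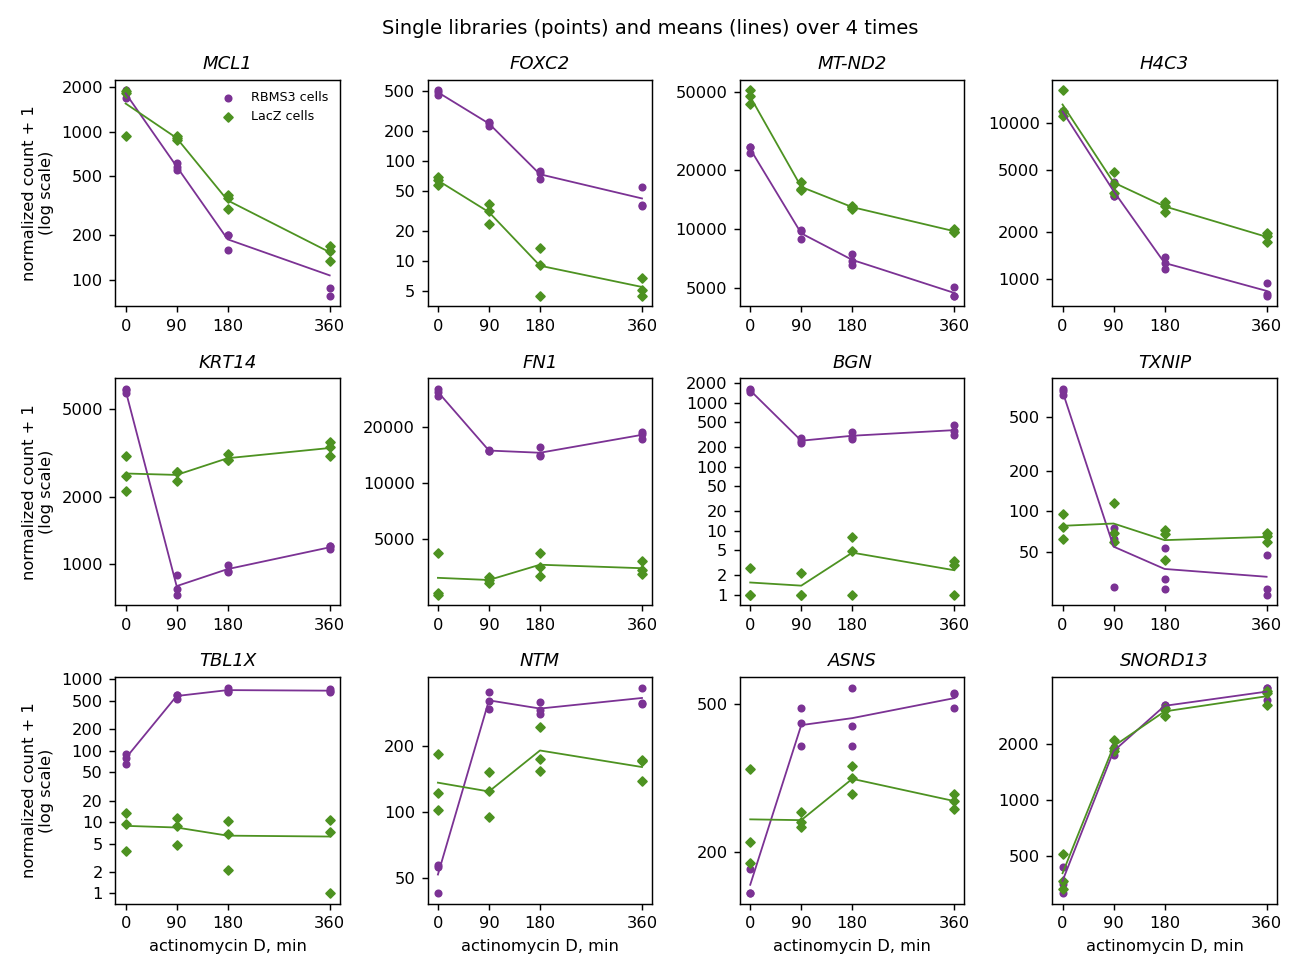
Normalized counts + 1 on a log axis at 0, 90, 180 and 360 min of actinomycin D in RBMS3 and LacZ cells for 12 genes, with points for libraries and lines through the group means. MCL1, FOXC2 and MT-ND2 are lower at each later time in RBMS3 cells, whereas most of the change of KRT14, FN1, TBL1X and NTM in RBMS3 cells lies between 0 and 90 min, and TBL1X and BGN are near the floor in LacZ cells.

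The same interval in LacZ cells gave 416 genes higher (3.44%) and 331 lower (2.74%) of 12096 (6.18% in all), in libraries that share none with the RBMS3 comparison. Of the 876 genes that fell in RBMS3 cells by the fit of 12 libraries and were tested in both fits, 139 fell in LacZ cells. Another 27 rose in LacZ cells, where the 876 had a median of -0.24. The 1177 that rose had a median of 0.15 there, and 10.5% of them rose and 0.765% fell. Across 11611 genes the 2 changes correlated at a Pearson r of 0.37, a description across genes that are not independent. The test of the difference itself, RBMS3 change minus LacZ change, gave 328 genes more positive in RBMS3 cells (2.71%) and 305 more negative (2.52%), 5.23% in all, a split that becomes 1281 and 148 when libraries are scaled by ribosomal protein genes, which moves the median of all genes to 0.29.

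Labile regulators and mitochondrial messages moved in both lines. Immediate early factors fell in 34 of 50 cases in RBMS3 cells and 15 of 47 in LacZ cells. Their medians were -1.63 and -0.94, and 5 differed between the lines. Here too the counts for the lines came from the different fits named above. Mitochondrial messages fell in 12 of 13 cases in RBMS3 cells and 11 in LacZ cells, with medians of -0.79 and -0.62, and 4 differed. NFKBIA changed by -5.06 in RBMS3 cells and -3.89 in LacZ cells, and MT-ND2 by -1.43 and -1.53. Other groups had medians that lay apart in the lines. Glycolysis genes had a median of -0.53 in RBMS3 cells and 0.10 in LacZ cells, and 10 of 23 were more negative in RBMS3 cells in the test of the difference. Matrix genes had medians of -0.37 and 0.05, with 11 more negative and 2 more positive. ATF4 targets and tRNA synthetases had medians of 0.47 and 0.02, with 11 more positive in RBMS3 cells. Cytosolic ribosomal protein genes had medians of -0.0048 and 0.23, with 22 more negative.

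KRT14 had 2356, 2601 and 2594 in LacZ cells at 90 min, against 2133, 3053 and 2478 at 0 min, so the line difference was -2.93 ± 0.14 (SE; limma adjusted p = 2.5e-11). TXNIP had 115, 57.9 and 67.7 in LacZ cells at 90 min, against 75.4, 61.4 and 93.9 at 0 min, a line difference of -3.95 ± 0.52 (SE; limma adjusted p = 8.3e-05). The LacZ groups overlapped for both genes, which fell in RBMS3 cells over the same interval. ASNS had 233, 239.9 and 255 in LacZ cells at 90 min, against 212, 332 and 186 at 0 min, a line difference of 1.38 ± 0.24 (SE; limma adjusted p = 0.0014). HS3ST2 had 100.2, 152 and 102 in LacZ cells at 90 min, against 100.3, 125 and 94.9 at 0 min, a line difference of 3.28 ± 0.43 (SE; limma adjusted p = 8.9e-05). Their LacZ groups overlapped. PRRX1 had 0, 0 and 0 in LacZ cells at 90 min, against 6.64, 0 and 0 at 0 min, at or below a few reads, so its decay in LacZ cells was not detectable at this depth.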

How the data were processed

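Polyadenylated RNA of HMLE/RBMS3 and HMLE/LacZ cells was measured by 3' sequencing in 24 libraries, in 8 groups of 3 by line and time. Per the submitters' processing notes, the tools named are DESeq2 1.32.0, Salmon 1.4.0 and Trim Galore 0.6.6, and no source used here names a genome build. The authors deposited a table of normalized signal per gene symbol, called the normalized count here, and 1 file per library with an estimated count for each of 231288 transcripts. For 12 samples, the 0 min RBMS3 libraries included, the attached transcript file carries another sample's name. Each of the 24 files correlated best with the table column of its own name, so table columns matched by title were used, and the estimated counts served only to choose transcripts and to check the table.

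The table is not whole reads over a size factor. Of values under 50 reads 37.3% to 45.8% lay within 0.02 of a whole read, so no count test was run. Between the table and the estimated reads a gene-specific factor was left: over 9690 genes in the RBMS3 libraries at 90, 180 and 360 min its range had a median of 1.15-fold and was over 1.5-fold in 30.2% of the genes.

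Tests ran in limma 3.58.1 (R 4.3.3), with trend on and robust off, on log2(normalized count + 1), which understates changes of low genes. The fit had 4 group means over the 12 RBMS3 libraries and genes with a mean of at least 10. The LacZ comparison and the line difference used 8 group means over 24 libraries and 12096 genes. Benjamini-Hochberg adjustment ran over all genes tested. Tests on simulated data were run first. Other steps used Python 3.11.15. GENCODE 29 gave gene types and 3' UTRs, and 38766 of 38849 symbols matched.

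Named genes are RBMS3 and PRRX1, the 12 largest rises and falls, up to 4 members of each of 25 lists, and the 6 largest line differences in each direction. Genes named for a rise or a fall passed, averaged 50 or more in the higher group and had groups without overlap. The members, lists and rule were chosen with earlier results of these data known. Some members of the lists are not reported here. Alternatives tried were other scalings, pseudocounts, filters, sets of libraries, a replicate block and leaving out each library.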

Additional observations from a re-analysis of the deposited data

Results flagged for a closer look

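The change between 0 and 90 min differed between the lines, by limma's test of RBMS3 change minus LacZ change, for 21 genes described here. More negative in RBMS3 cells were CA9, a carbonic anhydrase of hypoxic cells (-6.30), C1R (-5.82), PIK3C3, a lipid kinase of autophagy (-4.74), CDH3, P-cadherin (-4.67), COL5A3 (-4.43) and MUC1, a surface mucin (-4.31). CA9 had 4.18, 6.12 and 9.71 at 90 min, against 185, 169 and 298 at 0 min in RBMS3 cells, and 20.7, 8.78 and 32.9 against 21.4, 0 and 14.8 in LacZ cells. MUC1 had 9.94, 8.86 and 4.26 at 90 min, against 99.4, 103 and 348 at 0 min in RBMS3 cells, and 4.37, 6.81 and 12.2 against 3.79, 4.68 and 15.9 in LacZ cells. Every LacZ library of both times lay below every RBMS3 library at 0 min for the pair. From such low LacZ counts at 0 min a fall as large as that in RBMS3 cells could not be seen. For CA9 and MUC1 the test therefore cannot tell a different early change from low expression in LacZ cells.

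TXNIP (-3.95), HES1 (-3.78), CXCL1 (-3.18) and JUNB (-2.60) were also more negative in RBMS3 cells. HES1, CXCL1 and JUNB were lower at 90 min in both lines by their means, so for these the lines differ in size. The keratins KRT14 (-2.93), KRT5 (-2.52) and KRT17 (-2.28) fell in RBMS3 cells while their LacZ values, -0.01, 0.63 and 0.12, did not pass. Replicate 2 of LacZ cells at 0 min stood apart for KRT5, at 1503 against 3212 and 3392 in replicates 1 and 3. It also did for CDH1, at 146 against 380 and 430, and for ASNS, where it was the highest. The line difference of KRT5 passed in all alternatives, those without this library included (limma adjusted p at most 0.0050).

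More positive in RBMS3 cells were SNORA67 (5.37), ADRA1B (3.42), HS3ST2 (3.28), NTM (2.77), COL13A1 (2.74), LHX1-DT (2.71), RNU1-1 (2.49) and ASNS (1.38). The LacZ changes of these genes did not pass. COL13A1 lost its call without replicates 1 or 3 of 90 min or replicate 3 of 0 min or replicates 1 or 2 of LacZ cells at 90 min or replicates 1 or 2 of LacZ cells at 0 min (limma adjusted p 0.057 to 0.094). LHX1-DT lost its call without replicate 1 of 90 min or replicate 3 of 0 min or replicate 1 of LacZ cells at 90 min (limma adjusted p 0.050 to 0.065). PIK3C3 lost its call without replicate 3 of 90 min or replicates 1 or 2 of 0 min or replicate 3 of LacZ cells at 90 min or replicate 3 of LacZ cells at 0 min (limma adjusted p 0.050 to 0.070). RNU1-1 lost its call without replicate 1 of 90 min or replicate 3 of LacZ cells at 90 min (limma adjusted p 0.051 to 0.057). With only the 12 libraries at 0 and 90 min fitted, COL5A3, SNORA67, COL13A1, LHX1-DT, PIK3C3 and RNU1-1 did not pass (limma adjusted p 0.066 to 0.10), and with a pseudocount of 10 neither did COL13A1 and LHX1-DT (limma adjusted p 0.091 and 0.090).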

How the results depend on the processing

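The counts of genes that passed at 90 min, 1180 higher and 890 lower, came out at 857 and 979 with only the 6 libraries fitted, where falls outnumbered rises, 967 and 789 with all 24, 1204 and 1045 with a pseudocount of 10, and 1452 and 790 with ribosomal protein scaling. Among the 6768 genes whose factor between table and reads was steady, an alternative added after seeing the data, 1145 rose and 588 fell. The factor was compared only over the RBMS3 libraries from 90 min on. Whether it was the same in the 0 min libraries was not tested, so these counts may still include genes whose factor differed at 0 min. Leaving out 1 library gave 890 to 1009 higher and 616 to 782 lower. For the line difference the 328 more positive and 305 more negative genes became 1281 and 148 under ribosomal protein scaling, with a median over all genes of 0.29, and 140 and 153 with only the 12 libraries at 0 and 90 min, where fewer libraries estimate the spread. Leaving out 1 library gave 222 to 390 and 218 to 370. None of the genes given by name changed direction while passing. Of 3480 comparisons over 195 genes given by name, 3232 stayed on the same side of the threshold, 240 lost the call and 8 gained it. Of 450 list medians 92 moved by more than the spread between replicates, and 4 lists with medians near 0 changed sign, as given with them. The 21 line difference genes kept 453 of 479 calls. Of the genes said to lose their call without 1 library, ADARB1, BCL2L1, CCNE1, CKS2, EIF4E2, EIF4G3, IRX4, MT-ATP6, MYC, PDGFA, PDIA6, RNU6-37P, SMG1, SNHG9, TCF3, TCF4, TGFB2, TK1, UBE2S, ZNF134, ZNF217 and ZNF544 also lost it under another setting, at limma adjusted p-values of 0.050 to 0.25. The cause of these shifts was not tested.

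Replicate numbers are shared across groups. The deviations of same-numbered libraries at 90 and 0 min correlated at -0.014, -0.0036 and -0.028 in RBMS3 cells and 0.074, 0.115 and 0.0051 in LacZ cells. Deviations from means of 3 libraries cannot exclude a pairing with small effects, so whether the numbers pair the libraries is not known. With a replicate block 1075 genes were higher and 836 lower, and the line difference had 317 and 287. Low counts limit the largest falls: at 90 min DUSP1, SOCS3 and CXCL3 rested on a few reads per library, so their fold depends on the pseudocount.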

Other observations

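Histone messages were not in any list and were looked at after their values were seen. Of 22 tested replication-dependent histone genes, whose messages normally end in a stem-loop without a poly(A) tail, 12 fell and none rose, with a median of -3.18, and in LacZ cells 11 of 21 fell with a median of -2.96. H1-2, a linker histone, had 92.3, 122 and 118 at 90 min, against 2193, 2008 and 2083 at 0 min, a difference of -4.24 ± 0.20 (SE; limma adjusted p = 5.1e-08). H4C3 had 3394, 3386 and 4155 at 90 min, against 11516, 11905 and 11938 at 0 min, a difference of -1.70 ± 0.10 (SE; limma adjusted p = 2.3e-07), and averaged 1262 ± 109 at 180 and 836 ± 87.7 at 360 min (SD, n = 3 each). Variant histone genes, whose messages are polyadenylated, had 3 of 10 lower and 1 higher: H2AX fell by 0.60 and H3-3B by 0.24, and H2AZ2 rose by 0.52. H2AX did not pass with all 24 libraries in 1 fit (limma adjusted p 0.063, over all alternatives 0.0020 to 0.063), nor H3-3B with limma's trend off (limma adjusted p 0.078, over all alternatives 0.0021 to 0.078).

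Small RNAs without a usual poly(A) tail also moved. SNORD13 had 1832, 1739 and 1912 at 90 min, against 316, 355 and 436 at 0 min, a difference of 2.32 ± 0.10 (SE; limma adjusted p = 3.0e-08), and its change in LacZ cells was 2.28. Of 20 tested small nucleolar RNAs 6 rose and none fell. Copies of the 7SL RNA annotated as pseudogenes made up the 8 falls among 28 RNAs of the miscellaneous class, whose 1 rise was RNY3 at 1.43. The copies are near-identical, so the counting could split reads among them. Of 16 mitochondrial tRNAs 8 fell and 3 rose. Which molecules gave these reads, and the part priming plays in them, was not tested.

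The complement gene C3 had 25.3, 17.2 and 23.3 at 90 min, against 555, 593 and 471 at 0 min, a difference of -4.57 ± 0.74 (SE; limma adjusted p = 0.0011). Of 7 tested metallothioneins 1 rose and 2 fell: MT1E rose by 0.40 whereas MT1X fell by 0.88 and MT1F by 1.48. MT1F lost its call without replicate 2 of 90 min (limma adjusted p 0.050) and with only the 6 libraries fitted (limma adjusted p 0.053, over all alternatives 0.00099 to 0.053), and MT1E with all 24 libraries in 1 fit (limma adjusted p 0.20, over all alternatives 0.00017 to 0.20). The nuclear RNAs MALAT1 and NEAT1 were at -0.25 and -0.23 and did not pass.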
